A study of Homo sapiens with 5 samples.

Results

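The genes described here build the human centromere and kinetochore and run the spindle assembly checkpoint. They are a list of 36 symbols, and 35 of them had a probe set that carries that symbol alone. CENPP had none and was not analysed here. Where a gene had several probe sets, the one with the highest average level over the 5 arrays stands for it, which gives 35 genes of 19775 in all. The list was drawn up by function, with earlier results of these data known, so its counts beside those of all genes are a description.

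The centromere is marked by nucleosomes that hold the histone H3 variant CENP-A, on which the constitutive centromere-associated network assembles. This inner layer recruits the KMN network (KNL1, the MIS12 complex and the NDC80 complex), which grips spindle microtubules. Kinetochores without a proper attachment signal through TTK, BUB1, BUB1B, BUB3 and MAD2L1 to hold the cell in mitosis. Many of these genes are transcribed mainly in G2 and M phase, so their RNA in a culture is known to follow how many cells divide.

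RNA of PC-3, an established androgen-independent human prostate cancer cell line, was hybridised to 5 Affymetrix arrays. They held PC-3 cells in ordinary dish culture (2D), PC-3 cells in spheroid culture, PC-3 cells with a control hairpin RNA against GFP (shGFP), and PC-3 cells with either of 2 hairpins against TRIB1 (shTRIB1-1 and shTRIB1-2). TRIB1 is a pseudokinase that brings substrates to the ubiquitin ligase COP1. The labels give no treatment for any sample, and the same dish protocol for all 5, spheroids included. The design sets spheroids beside 2D culture, and TRIB1 depletion beside the control hairpin. With 1 array each for 2D, spheroid and shGFP, their values carry no replicate error. Whether the arrays came from separate cultures is not given, so p-values measure only the spread between these arrays, which may be technical.

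A level is the log2 of the deposited intensity, and levels of different genes cannot be compared because their probes differ. The arrays stood apart in quality controls, more so for actin than for GAPDH. For actin, signal at the 5′ end over that at the 3′ end was 0.436 to 0.445 with any hairpin, 0.184 in 2D and 0.131 in spheroids. The same ratio for GAPDH was 0.929 to 0.944 with any hairpin, 0.895 in 2D and 0.763 in spheroids. TRIB1 itself was at 11.97 with shGFP, 11.91 with shTRIB1-1, 11.76 with shTRIB1-2, 11.04 in 2D and 11.23 in spheroids. On the chosen probe set, 1 of 3 for TRIB1, its signal was therefore hardly lower on the arrays labelled for its depletion. Directions below are those of the labelled arrays. The 6 epithelial and PC-3 markers (KRT8, KRT18, KRT19, EPCAM, CD44 and VIM) lay between 9.39 and 13.19 on every array and differed by -0.79 to -0.23 in spheroids against 2D. The 4 stromal markers stayed below a level of 6, and among 5 measured blood and endothelial markers PECAM1 was higher in spheroids (9.53) than in 2D (7.57). The part of these features in the results was not tested.

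In spheroids, most genes of the kinetochore were far lower than in 2D culture. Every one of the 35 measured members was lower by some amount, although BUB3 by less than 0.01, against 48.4% of all 19775 genes. A drop of 2-fold or more was found for 27 of the 35, against 2.96% of genes. The median difference over all 35 was -1.92 on the log2 scale, against 0.00 over all genes. Of the 34 members that reached a level of 6 on either array, 26 were 2-fold lower or more, against 5.23% of 10570 genes, and 0 were 2-fold higher, against 5.05%. With the filter set on the mean over the 5 arrays, 25 of 33 were, against 5.04%. At least 4-fold lower were 15 of the 35, against 0.668% of all genes and 1.25% of those past the filter. In 7 of the 34 (CENPA, CENPE, CENPI, CENPM, KNL1, SKA1 and SPC25) the spheroid level was itself below 6, near background, so the exact size of those differences is uncertain. A level above 6 can also be background. Of the markers listed as low or absent in PC-3, KLK3 read 6.90 on all 5 arrays and TMPRSS2 5.62 to 7.09. Spheroid levels little above 6, as for NUF2 (6.04), HJURP (6.35) and CENPF (6.48), carry the same uncertainty. In a bulk sample, fewer dividing cells and less RNA per dividing cell cannot be told apart. With 1 array in each condition there is no test of these differences.

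**Figure D1:**
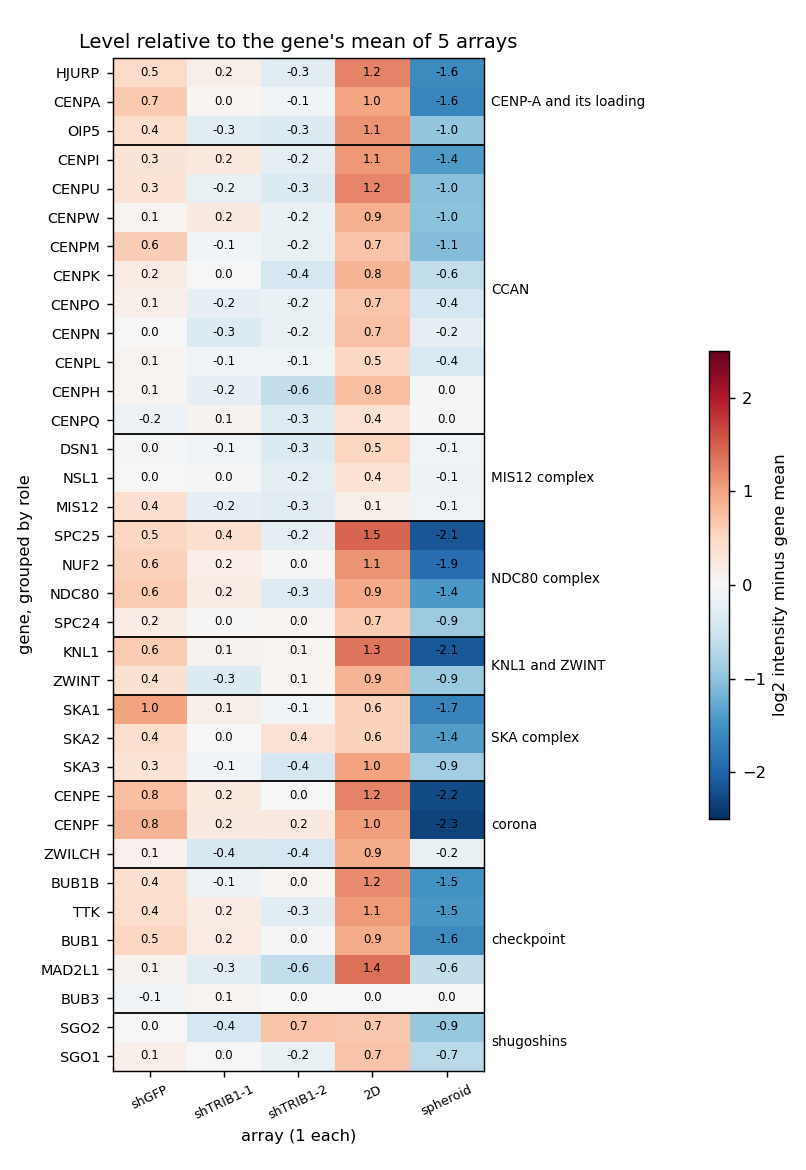
Level of each of the 35 measured genes (rows, grouped by role) on the 5 arrays (columns), as log2 intensity minus that gene's mean over the 5 arrays; CCAN is the constitutive centromere-associated network. The 2D array was the highest of the 5 for 31 of these genes, against 20.1% of all genes, and the spheroid array the lowest for 26, against 27.7%.

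The histone variant CENP-A and its loading factors were all lower in spheroids. HJURP, the chaperone that deposits CENP-A, had a level of 9.17 in 2D and 6.35 in spheroids, and 8.42, 8.09 and 7.66 on the shGFP, shTRIB1-1 and shTRIB1-2 arrays. It was lowest in spheroids, with a difference of -2.82 from 2D (7.06-fold). CENPA itself was at 8.15 in 2D and 5.54 in spheroids, a difference of -2.61, and at 7.83, 7.22 and 7.11 on the shGFP, shTRIB1-1 and shTRIB1-2 arrays. OIP5 (MIS18 beta), part of the complex that primes centromeres for loading, had levels of 9.79 in 2D, 7.69 in spheroids, 9.09 with shGFP and 8.40 and 8.32 with the TRIB1 hairpins. Its difference of -2.10 was the smallest of these 3.

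The constitutive centromere-associated network, which stays on the centromere through the cell cycle, was mixed. Of 10 measured subunits, 6 were at least 2-fold lower in spheroids, against 2.96% of all genes, and the median difference was -1.29. CENPI, a subunit of the CENP-H/I/K/M group, had a level of 7.40 in 2D, 4.89 in spheroids, 6.63 with shGFP and 6.55 and 6.09 with the TRIB1 hairpins. Its difference of -2.51 was the largest in the network, and the spheroid level was near background. CENPU (-2.26), which helps recruit the kinase PLK1, came next. It was followed by the histone fold protein CENPW (-1.92) and by CENPM (-1.80), CENPK (-1.46) and CENPO (-1.11). CENPN, which reads the CENP-A nucleosome, differed by -0.96, its partner CENPL by -0.89 and CENPH by -0.80, just short of 2-fold. CENPQ, which binds next to CENPU, had levels of 7.15 in 2D, 6.80 in spheroids, 6.63 with shGFP and 6.87 and 6.45 with the TRIB1 hairpins. Over the 5 arrays CENPQ ran from 6.45 to 7.15, and its difference of -0.34 turned to 0.18 when the shGFP array was the reference.

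The MIS12 complex, the platform between inner and outer kinetochore, was the only role group here with no member 2-fold lower in spheroids. DSN1 had a level of 9.02 in 2D and 8.38 in spheroids, with 8.45, 8.39 and 8.15 on the shGFP, shTRIB1-1 and shTRIB1-2 arrays. That is a difference of -0.63. NSL1 differed by -0.49. MIS12 was at 9.69 in 2D, 9.46 in spheroids, 9.95 with shGFP and 9.34 and 9.26 with the TRIB1 hairpins. Its spheroid difference was -0.23, and for this gene the TRIB1 hairpin arrays, not the spheroid array, were lowest and the shGFP array was highest.

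The NDC80 complex, the rod-shaped microtubule coupler of the outer kinetochore, was lower in spheroids in all 4 subunits, but by unequal amounts. SPC25, at the inner end of the rod, had a level of 9.12 in 2D and 5.53 in spheroids, with 8.17 on the shGFP array and 8.07 and 7.43 with the TRIB1 hairpins. Its difference of -3.59 was the largest of all members against 2D, with a spheroid level below 6. Against the shGFP array the order turned, with -2.65 for SPC25 and -3.17 for CENPF. SPC24, its dimer partner, was at 8.43 in 2D, 6.86 in spheroids, 7.95 with shGFP and 7.79 and 7.82 with the TRIB1 hairpins. That difference was -1.57 (2.97-fold), the smallest in the complex. NUF2 differed by -3.04 and NDC80 (HEC1), which binds the microtubule, by -2.38. KNL1, the scaffold that docks BUB proteins, was at 8.78 in 2D and 5.32 in spheroids, a difference of -3.46 with a spheroid level below 6. On the hairpin arrays KNL1 stood at 8.09 with shGFP and at 7.53 and 7.52 with the TRIB1 hairpins. ZWINT, which links KNL1 to the RZZ complex, had levels of 12.24 in 2D, 10.46 in spheroids, 11.77 with shGFP and 11.05 and 11.45 with the TRIB1 hairpins, and differed by -1.79.

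The SKA complex, which helps NDC80 hold depolymerising microtubules, was lower in spheroids by similar amounts in its 3 subunits. SKA1 had a level of 6.23 in 2D, 3.98 in spheroids, 6.65 with shGFP and 5.78 and 5.58 with the TRIB1 hairpins. It differed by -2.25, and 3 of its 5 levels were below 6. SKA2 differed by -1.97. SKA3 stood at 8.31 in 2D, 6.44 in spheroids, 7.63 with shGFP and 7.24 and 6.88 with the TRIB1 hairpins, a difference of -1.87.

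Proteins of the fibrous corona, the outermost layer, included 2 of the largest differences. CENPE, a kinesin that carries chromosomes along microtubules, had a level of 8.95 in 2D and 5.48 in spheroids (-3.48), the latter below 6. With shGFP it was at 8.48, and with the TRIB1 hairpins at 7.96 and 7.72. CENPF, which recruits dynein regulators, differed by -3.37. ZWILCH, a subunit of the RZZ complex, had levels of 10.29 in 2D, 9.19 in spheroids, 9.48 with shGFP and 8.97 and 8.93 with the TRIB1 hairpins. Its difference was -1.10, and its spheroid level lay above both TRIB1 hairpin arrays.

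Of the 5 checkpoint genes, 4 were at least 2-fold lower in spheroids, against 2.96% of all genes, and BUB3 was not. BUB1B (BubR1), which inhibits the anaphase-promoting complex, had levels of 10.27 in 2D, 7.58 in spheroids, 9.49 with shGFP and 8.95 and 9.14 with the TRIB1 hairpins. Its difference was -2.69 (6.47-fold). The kinases TTK (MPS1) and BUB1 each differed by -2.52. MAD2L1 (MAD2), whose conformational switch carries the signal, differed by -1.96, but by only -0.68 against the shGFP array. BUB3, a WD40 protein that binds phosphorylated KNL1, had a level of 11.89 in 2D, spheroids and the shTRIB1-2 array, 11.83 with shGFP and 11.96 with shTRIB1-1. Exact ties between arrays occur in these deposited values. The 3 other BUB3 probe sets with a mean level of at least 6 differed by -0.37, 0.33 and 0.36, so no direction can be given for BUB3.

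The shugoshins protect centromeric cohesion until anaphase. SGO2 was at 9.95 in 2D and 8.32 in spheroids, a difference of -1.62. SGO1 differed by -1.38, from 5.64 to 4.26. SGO1 stood at 5.05 with shGFP and at 4.94 and 4.77 with the TRIB1 hairpins, so it did not reach a level of 6 on any array.

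**Figure D2:**
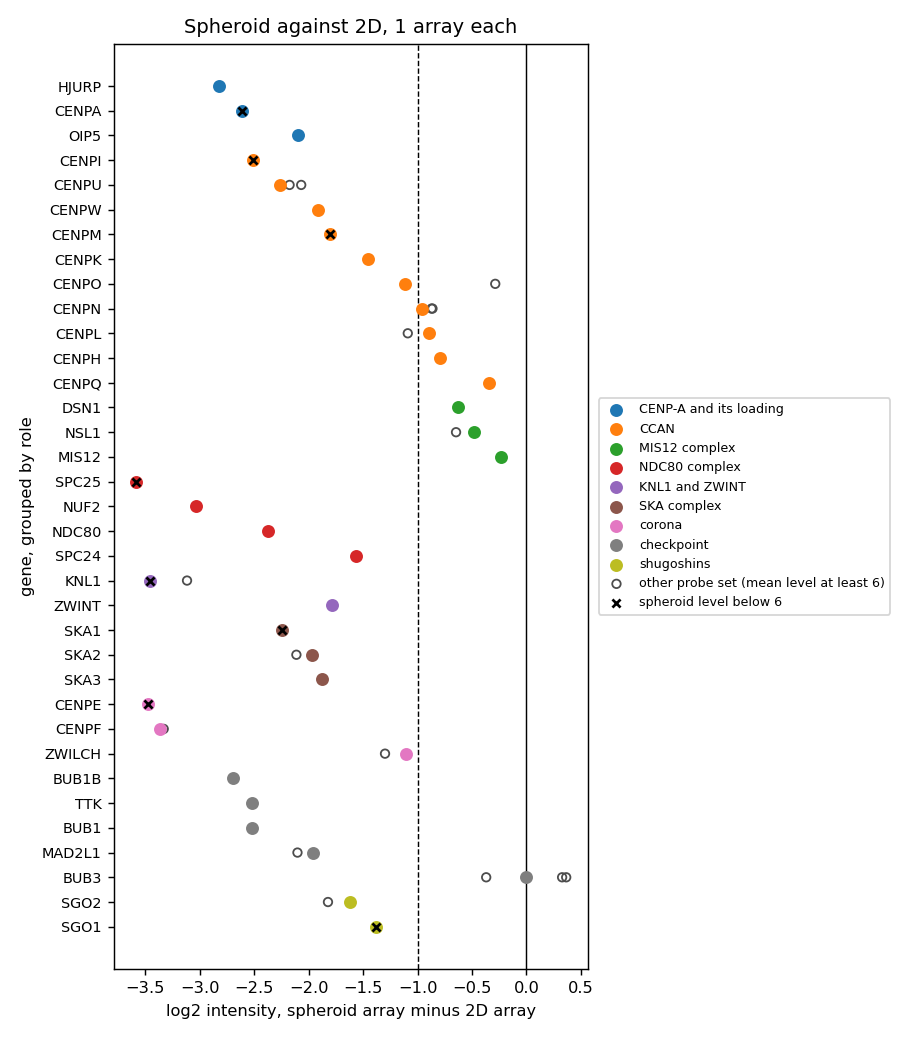
Log2 intensity of the spheroid array minus the 2D array for each measured gene, coloured by role, with other probe sets of the same gene (mean level at least 6) as open circles and the 2-fold line dashed. CENPE, CENPF, KNL1 and SPC25 lie between -3.59 and -3.37, while the MIS12 complex and BUB3 lie between -0.63 and 0.00.

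Other probe sets of the same genes gave similar differences. Of the 35 genes, 16 had more than 1 probe set. Among 16 further probe sets with a mean level of at least 6, which belong to 12 genes, 14 were lower in spheroids. In 15 the difference was within 0.5 of that of the chosen probe set, with a median gap of 0.19. The exception was CENPO, whose other probe set differed by -0.29 against -1.11. The 18 further probe sets below a mean level of 6 had a median difference of -0.44, at signals near background. The chosen probe sets of CENPA, CENPH, CENPL and SKA1 are of the _x_at type, which can also bind related transcripts.

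The choice of reference moved the size of the spheroid differences. All but 2 members were lower on the shGFP array than on the 2D array, where 39.9% of all genes were, with a median of -0.56. MAD2L1 differed most between these controls, by -1.28, and was the only 1 of 34 that was 2-fold lower, against 2.11% of genes. The exceptions were SKA1 (0.42) and MIS12 (0.26). Against the shGFP array the members' median in spheroids was -1.31, and against the mean of both controls it was -1.55. The shGFP and 2D arrays also differ in the hairpin and in the actin ratio, which cannot be told apart. In the GAPDH ratio they lay closer, at 0.944 and 0.895.

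Promoters of the members were set beside these differences, because genes that are transcribed late in the cell cycle are known to carry CHR elements and CCAAT boxes. The CHR (cell cycle genes homology region) is bound by the DREAM complex and by MYBL2 and FOXM1 complexes, and CCAAT boxes by NF-Y. RefSeq promoters (GRCh38.p14, 250 bases before to 50 after each annotated start) held 30 of the 36 members. The list has no window for CENPH, CENPL, CENPM, KNL1, BUB3 and TTK. Stretches from 120 bases before the start to 10 after it are shown for 6 members. They are the dimer partners SPC25 and SPC24, then CENPA and BUB1B with large differences, and MIS12 and CENPQ with small ones. Capitals mark matches on either strand. The CHR core was searched as TTTGAA. A variant of that core was searched as TTTAAA. The box for NF-Y was searched as CCAAT, which reads ATTGG on the opposite strand. E2F sites were searched as TTTCCCGC, TTTGGCGC, TTTCGCGC and TTTGCCGC.
SPC25, chr2:168890421-168890550, minus strand: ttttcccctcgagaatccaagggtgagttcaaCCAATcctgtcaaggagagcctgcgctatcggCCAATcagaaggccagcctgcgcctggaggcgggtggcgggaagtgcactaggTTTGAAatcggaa
SPC24, chr19:11155773-11155902, minus strand: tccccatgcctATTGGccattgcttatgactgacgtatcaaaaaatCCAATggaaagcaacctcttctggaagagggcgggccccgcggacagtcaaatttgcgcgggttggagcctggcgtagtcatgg
CENPA, chr2:26785936-26786065, plus strand: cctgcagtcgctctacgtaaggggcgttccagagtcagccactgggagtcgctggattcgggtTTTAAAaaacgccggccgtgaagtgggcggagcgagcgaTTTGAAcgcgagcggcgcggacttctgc
BUB1B, chr15:40160949-40161078, plus strand: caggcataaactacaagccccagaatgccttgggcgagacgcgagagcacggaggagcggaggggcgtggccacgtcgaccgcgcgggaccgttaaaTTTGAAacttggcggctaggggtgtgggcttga
MIS12, chr17:5486254-5486383, plus strand: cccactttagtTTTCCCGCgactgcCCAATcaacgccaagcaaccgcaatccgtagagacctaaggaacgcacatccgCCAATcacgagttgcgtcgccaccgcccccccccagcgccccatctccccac
CENPQ, chr6:49463250-49463379, plus strand: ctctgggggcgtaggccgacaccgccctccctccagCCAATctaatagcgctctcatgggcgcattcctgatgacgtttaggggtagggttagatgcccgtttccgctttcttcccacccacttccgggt

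SPC25, CENPA and BUB1B hold TTTGAA within 23 bases of the start, whereas the printed stretches of SPC24, MIS12 and CENPQ hold none. Over the whole windows, TTTGAA occurred in 13 of the 30 members (43.3%), against 18.2% of 27305 genes in the table and 13.8% of 8771 genes past the level filter. The 13 are CENPA, CENPF, CENPN, CENPO, HJURP, MAD2L1, BUB1B, NDC80, NUF2, SPC25, SKA1, SKA3 and ZWINT. Among them CENPO (-1.11) and CENPN (-0.96) had small spheroid differences. Members at least 4-fold lower whose windows lack TTTGAA are CENPE (-3.48), BUB1 (-2.52), CENPI (-2.51), CENPU (-2.26) and OIP5 (-2.10). The printed stretches are therefore examples and do not stand for all members. CCAAT occurred in 20 members (66.7%), against 39.7% of all genes and 44.0% of those past the filter. An E2F motif occurred in 4 (13.3%), against 3.99% and 6.90%, and TTTAAA in 4 (13.3%), against 14.5% and 10.7%. TTTAAA reads the same on both strands and also resembles a TATA element. Of the 24 members with a window that were at least 2-fold lower in spheroids, 12 hold TTTGAA, and of the 5 others 1 does (CENPN). The median spheroid difference was -2.38 for the 13 members with the motif and -1.60 for the 16 measured members without it. For CCAAT the order was the opposite, -1.92 for the 19 measured members with it and -2.31 for the 10 without it. CCAAT occurred in 16 of the 24 lower members and in 3 of the 5 others. These are descriptions of letters in a fixed window, with no test, and a match is not a bound site.

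On the arrays labelled shTRIB1, most members were modestly lower than on the shGFP array, and no gene passed the test. Of the 35 measured members, 31 were lower on both TRIB1 hairpin arrays, against 30.8% of all 19775 genes, and BUB3 alone was higher on both, against 22.7%. The median differences were -0.36 with shTRIB1-1 and -0.55 with shTRIB1-2, against 0.00 over all genes with each. A difference of at least 2-fold on both arrays was reached by 0 of the 34 members past the level filter, against 0.0855% of 10522 genes. Taken singly, 0 of the 34 were 2-fold lower with shTRIB1-1, against 1.86%, and 1 (SKA1) with shTRIB1-2, against 0.817%. Lower by at least 0.5 on both arrays were 10 of the 34, against 1.69% of genes, or 10 of all 35, against 1.05%. These are CENPA, CENPE, CENPF, CENPM, CENPU, KNL1, MIS12, OIP5, SKA1 and ZWILCH, by their chosen probe sets. Further probe sets with a mean level of at least 6 fell short for CENPF (-0.35 and -0.44) and KNL1 (-0.37 and -0.72). Those of CENPU also did (-0.38 and -0.70, -0.42 and -0.80). A further probe set of ZWILCH (-0.51 and -0.64) and 1 of MAD2L1 (-0.54 and -0.66) passed. Both TRIB1 hairpin arrays are set against the same single shGFP array, so an excursion of that array would move both differences together. Against the 2D array in its place the members' median was -0.99.

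Limma's moderated test, with a trend on intensity and p-values adjusted by Benjamini-Hochberg over 10522 genes, called 0 genes and 0 members. The smallest adjusted p was 0.951. At an unadjusted p under 0.05, limma held 9 of the 34 members, all lower, against 1.57% of genes that were lower and 1.82% that were higher at that level. The 3 members with the smallest unadjusted p were CENPM, SKA1 and OIP5. CENPM had levels of 7.56 with shGFP and of 6.88 and 6.77 with the TRIB1 hairpins, 7.66 in 2D and 5.86 in spheroids, and differed by -0.74 ± 0.08 (SD, n = 2). SKA1 differed by -0.97 ± 0.14 (SD, n = 2), the largest mean difference of the members, and reached -1.07 with shTRIB1-2. OIP5 differed by -0.73 ± 0.05 (SD, n = 2). For each of these the adjusted p of limma was 0.951. The fit has 1 residual degree of freedom, and the SD holds only the spread between the hairpin arrays.

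By role, all measured genes of the CENP-A, NDC80, MIS12, KNL1 and ZWINT, SKA and corona groups were lower on both TRIB1 hairpin arrays. Of all genes, 30.8% were. The median differences of these groups were -0.67, -0.45, -0.18, -0.54, -0.57 and -0.63 in that order. Of the other groups, the constitutive centromere-associated network had 8 of 10 lower on both, against the same 30.8%, and a median of -0.31. The checkpoint group had 4 of 5 (median -0.45) and the shugoshins 1 of 2 (median -0.03). No difference between roles was tested. CENPF was at 9.65 with shGFP and at 9.03 with each TRIB1 hairpin. CENPE differed by -0.51 and -0.75, and ZWILCH by -0.51 and -0.55. In the NDC80 complex, NDC80 itself differed by -0.46 and -0.96 and SPC24 by -0.16 and -0.14. SPC25 differed by -0.10 and -0.74, so the hairpins were unlike for it. Among the checkpoint kinases BUB1 differed by -0.32 and -0.55 and TTK by -0.25 and -0.70. MIS12 was lower by -0.61 and -0.69, whereas its complex partners DSN1 (-0.06 and -0.31) and NSL1 (-0.04 and -0.24) lay nearer to 0.

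The hairpins went opposite ways for 3 members, SGO2, CENPQ and CENPW, against 26.5% of all genes. SGO2 had a level of 9.26 with shGFP, 8.83 with shTRIB1-1 and 9.98 with shTRIB1-2, differences of -0.43 and 0.72. Its other probe set moved alike, at 9.17, 8.77 and 9.80. SGO2 thus had the widest gap between the hairpins of all members, with a mean of 0.14 ± 0.81 (SD, n = 2). CENPQ differed by 0.25 and -0.18 and CENPW by 0.15 and -0.23. In 27 of the 35 members the level was lower with shTRIB1-2 than with shTRIB1-1, against 40.9% of all genes.

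**Figure D3:**
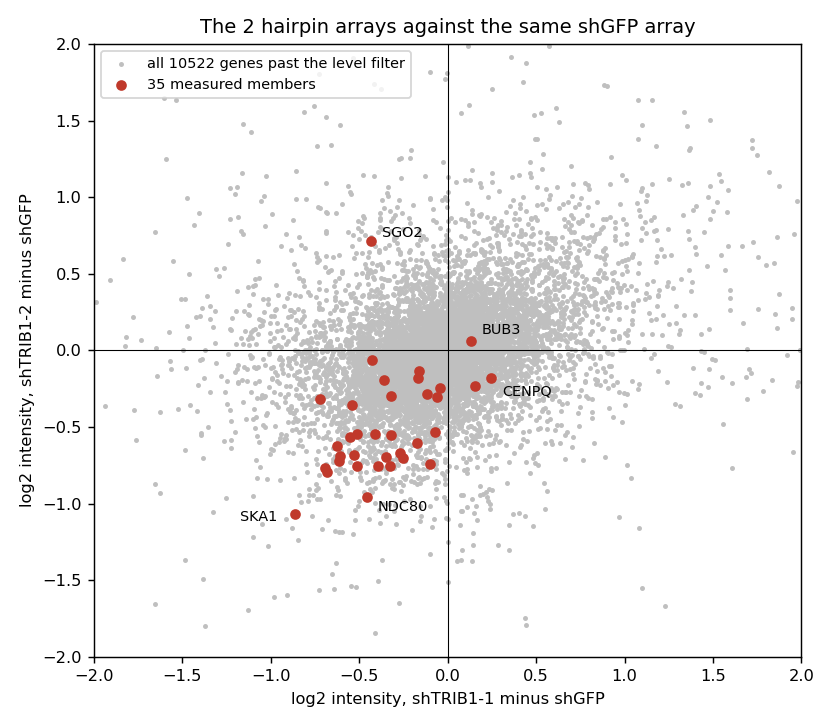
Log2 intensity of shTRIB1-1 (x axis) and shTRIB1-2 (y axis) minus the same shGFP array for 10522 genes past the level filter (grey, 45 outside the plotted range) and the 35 measured members (red). Of the members, 31 lie in the lower left quadrant, and SGO2 is the only member in the upper left.

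The spheroid and hairpin comparisons share no array. Across the 35 members, their differences had a Pearson correlation of 0.50 and a Spearman correlation of 0.49, given as a description over genes that are not independent. Across all 10249 genes past the filter in both comparisons the Pearson correlation was 0.33. The hairpin difference was smaller in size than the spheroid difference in 33 of 35 members, against 60.6% of all genes. The exceptions were MIS12 (-0.65 against -0.23) and BUB3 (0.10 against 0.00).

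**Figure D4:**
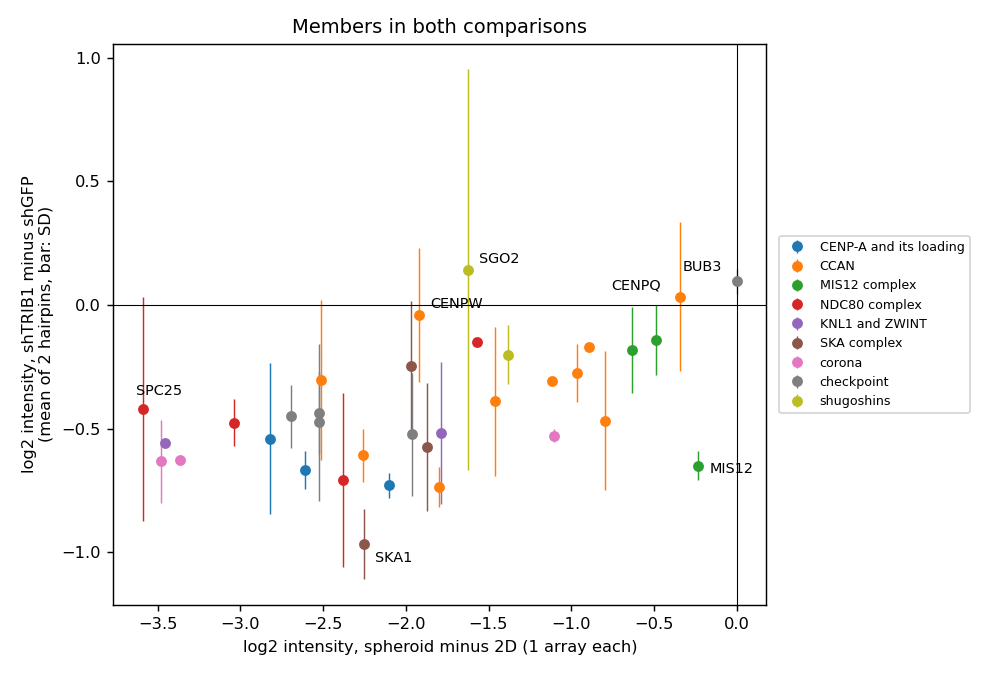
Log2 difference of spheroid and 2D (x axis, 1 array each) against the mean log2 difference of the 2 TRIB1 hairpins and shGFP (y axis, bars are the SD of 2 arrays) for the 35 measured members, coloured by role. MIS12 stands apart at -0.23 and -0.65. The bar of SGO2 is the longest and spans 0, as do those of other members, among them SPC25, CENPI and SKA2.

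Other genes of the centromere, kinetochore and checkpoint, a list of 24 that are not members, were also lower in spheroids. Of 22 measured, 10 were at least 2-fold lower, against 2.96% of all genes, with a median of -0.88. None was 2-fold higher, against 620 of all 19775 genes. The lowest were the microtubule depolymerase KIF2C (-3.22) and, from the chromosomal passenger complex, BIRC5 (-3.03) and AURKB (-2.85). The highest were CENPT (0.00) and CENPC (-0.03), which anchor the outer kinetochore to the network, and MAD1L1 (-0.05), the partner of MAD2. CENPT and MAD1L1 stayed below a level of 6 on all 5 arrays. With the TRIB1 hairpins, 17 of the 22 were lower on both arrays, against 30.8% of all genes, and the median was -0.19.

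Lists of other cell cycle genes gave the following values in the same comparisons. Of 20 mitotic genes, 19 were at least 2-fold lower in spheroids, against 2.96% of all genes, with a median of -2.52. All 20 were lower on both TRIB1 hairpin arrays, against 30.8% of all genes, with a median of -0.51. The lowest were CCNB2 (-3.28), CDC25C (-3.24) and MKI67 (-3.14), and the highest ESPL1 (-0.79), SMC2 (-1.24) and SMC4 (-1.52). Among 20 genes of DNA replication, 16 were at least 2-fold lower in spheroids, against the same 2.96% of all genes. The spheroid median of this list was -1.65, and its hairpin median was -0.34. TYMS (-2.32), GINS2 (-2.23) and CDC45 (-2.22) were lowest there, and RFC5 (0.53), RFC4 (-0.78) and PCNA (-0.89) highest. The members' median lay between these, but with 1 array in each condition no difference between lists was tested.

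**Figure D5:**
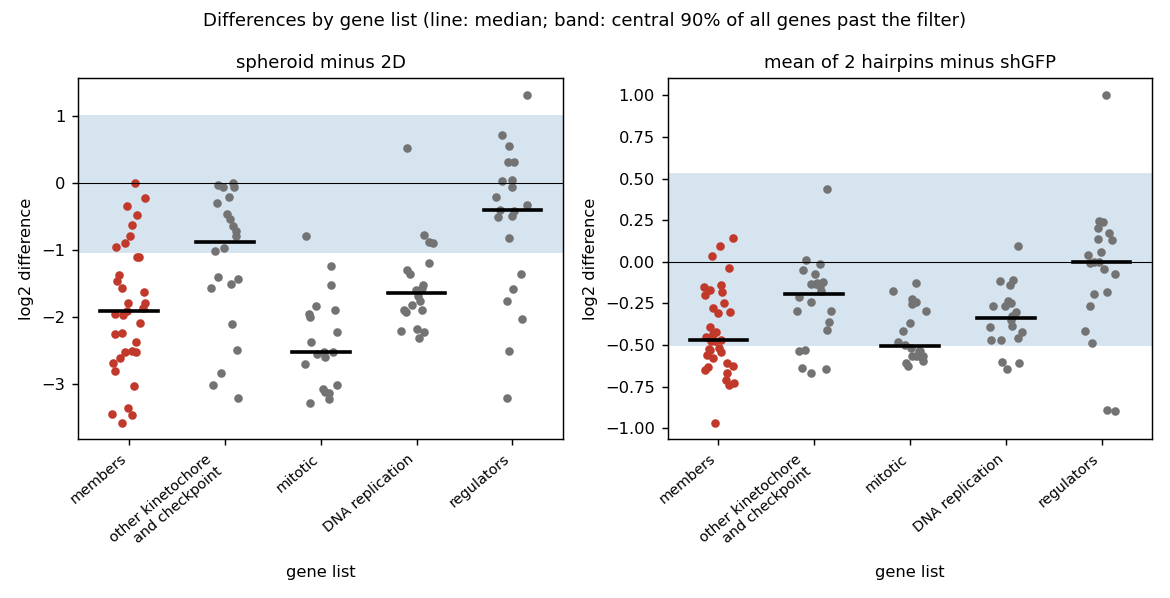
Log2 differences in spheroids against 2D (left) and in the mean of the TRIB1 hairpins against shGFP (right) by gene list, 1 point per measured gene, with the median as a line and the central 90% of all genes past the level filter as a band. In spheroids the median is -1.92 for the members and the band runs from -1.03 to 1.00.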

How the data were processed

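Messenger RNA was measured on 5 Affymetrix arrays, 1 for each of 2D, spheroid and shGFP and 2 for shTRIB1, grouped by sample title. The deposited values are linear intensities that the authors made with RMA, per the submitters' processing notes; version and chip definition: not given in the sources used here. RMA, by its usual definition, includes quantile normalization, which hides a change that moves most genes one way. Arrays have no read depth, and their number limits precision. Log2 was taken with no pseudocount.

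Of 54675 probe sets, 41091 carried 1 gene symbol in the platform annotation, 1801 several, and 11783 none or were controls. Genes entered a count "past the filter" at a level of at least 6 on any compared array. The spheroid comparison has no test. Limma 3.58.1 in R 4.3.3 compared 2 shTRIB1 arrays with 1 shGFP array and was tested on simulated data. All members may be named; in each role group the lowest and highest spheroid difference is given on all 5 arrays, with the 3 members of smallest limma p, TRIB1, and the 3 lowest and highest of other lists. Members and lists were chosen with earlier results of these data known. Alternatives changed the probe set, filter, pseudocount of 16, centring, reference array, hairpin array, fold threshold and limma settings. Promoters came from RefSeq, GRCh38.p14.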

Additional observations from a re-analysis of the deposited data

How the results depend on the processing

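In spheroids the count of members lower past the fold threshold lay between 21 and 30 under all alternatives run, against 26 of 34. The 30 belongs to a threshold of 1.5-fold. At 2-fold the count was 27 of 35 with no level filter and 21 of 28 at a filter of 8. Against shGFP alone it was 21 of 34. There SGO2 (-0.94), CENPK (-0.80), MAD2L1 (-0.68), CENPO (-0.55) and ZWILCH (-0.28) fell short of 2-fold. The members' median of -1.94 past the filter moved to -1.78 with a pseudocount of 16, -1.65 against the mean of 2D and shGFP and, chosen after seeing the data, -1.35 against shGFP alone. BUB3 and CENPQ were the only members whose spheroid difference changed sign under any alternative. On the TRIB1 hairpin arrays the count of members 2-fold lower on both was 0, but 6 at a threshold of 1.5-fold. It was 1 against the mean of shGFP and 2D (when the median of -0.47 became -0.75) and 9 against 2D alone (median -0.99). The share of all genes was not counted for altered references or the 1.5-fold threshold, here or for the other kinetochore genes below. Those counts therefore have no background beside them and say nothing particular to these genes. Leaving out a hairpin array gave counts of 0 to 1 and medians of -0.56 to -0.38, and left no residual degree of freedom for limma. SGO2, CENPQ and CENPW changed sign in the hairpin comparison under some of these settings. Limma called 0 members under every setting, with smallest adjusted p-values of members from 0.558 to 1.00. Its 9 members at an unadjusted p under 0.05 became 4 with centred arrays, 5 without _s_at and _x_at probe sets, 5 at a filter of 8 and 15 against both controls.

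For the other kinetochore genes, 10 were 2-fold lower in spheroids past the filter, but 5 without _s_at and _x_at probe sets and 6 against shGFP. Their median of -1.02 became -0.76 without those probe sets, -0.88 with no filter, -1.44 at a filter of 8, -0.88 with the pseudocount, -0.74 against both controls and -0.67 against shGFP. Their hairpin median of -0.24 became -0.28 as the median over probe sets, -0.15 without _s_at and _x_at, -0.19 with no filter, -0.29 at a filter of 8 or on the mean level, -0.19 with the pseudocount, -0.42 against both controls and -0.77 against 2D, where 5 were 2-fold lower on both. Leaving out a hairpin array gave -0.22 to -0.20. No paired analysis was possible because the shGFP, 2D and spheroid labels carry no replicate number. The cause of each shift was not tested. Single arrays, signals near a level of 6 and the difference between the shGFP and 2D arrays limit every size given.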

Other observations

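Regulators of cell cycle transcription, a list of 21, were mixed. Of the 21 measured, 6 were at least 2-fold lower in spheroids, against 2.96% of all genes, with a median of -0.41. Only 1 was 2-fold higher, against 620 of all 19775 genes. FOXM1, an activator of G2 and M phase genes, had a level of 9.45 in 2D, 6.23 in spheroids, 8.82 with shGFP and 8.14 and 7.71 with the TRIB1 hairpins. Its differences were -3.22 in spheroids and -0.68 and -1.11 with the hairpins. The atypical repressors E2F8 and E2F7, themselves E2F targets, differed by -2.52 and -2.04 in spheroids.

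At the other end, CDKN1A (p21), an inhibitor of cyclin-dependent kinases, was at 7.62 in 2D and 8.94 in spheroids, a difference of 1.32. On the hairpin arrays it stood at 7.40 with shGFP, 9.26 with shTRIB1-1 and 7.55 with shTRIB1-2, differences of 1.86 and 0.14. The pocket protein RBL2 (p130) was higher in spheroids by 0.71 and the DREAM subunit LIN37 by 0.56, both short of 2-fold. Against the shGFP array, RBL2 differed by 0.38 and LIN37 by -0.01. The other pocket protein genes of the list, RBL1 (-1.58) and RB1 (-0.22), were lower in spheroids than in 2D. Of its other LIN genes, LIN9 (-1.36) and LIN54 (-0.34, with levels below 6) were lower and LIN52 (0.32) was higher. The list thus gave no common direction for these genes.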
